A study of Arabidopsis thaliana with 10 samples.

Results

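Seedlings of Arabidopsis thaliana that carry a T-DNA insertion in HDA9 were set against the wild type. The comparison rests on 4 of the 10 libraries that the labels list: 2 of the hda9 mutant (allele SALK_007123) and 2 of the wild type, labelled ecotype Colombia-0 and called Col here. The authors deposited 1 pooled value per gene and genotype in FPKM (sequenced fragments per kilobase of a gene's transcript, scaled to depth), so the comparison sets 1 hda9 value against 1 Col value. Of 33297 rows, 18912 reached an FPKM of 1 in no fewer than 2 of the 5 genotype columns and were compared, as log2(FPKM + 1). The other columns, given beside hda9 where they help to read it, are hos15-2 (SALK_064435), pwr (SALK_071811C) and the double mutant of hda9 (SALK_007123) and hos15-2 (SALK_064435), each also from 2 libraries. All plants were whole seedlings 7 days old, grown at 23 °C with 16 hours of light and 8 of darkness and taken 12 hours into the day (ZT 12). The mutant is 1 insertion allele, and every organ of the seedling contributes to 1 RNA pool, so fewer cells of a type and less RNA per cell cannot be told apart. A gene is called higher or lower in hda9 where log2(FPKM + 1) differed by at least 1, that is 2-fold. This scale understates the fold of weakly expressed genes. Reads of genes that overlap on opposite strands could be mixed, since the use of strand in counting is not stated. There were no replicate values, so no error or p-value is given and each difference describes these 2 columns. The depth behind them is unknown.

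HDA9 is a histone deacetylase of the RPD3 class, an enzyme that takes acetyl groups off histone tails. Acetylated histones are a mark of active promoters, and HDA9 is known to act with the SANT-domain protein POWERDRESS (PWR). Loss of HDA9 is known to change flowering time, leaf senescence and growth in warm conditions. HOS15, a WD40-repeat protein, is described by the study's design text as a partner of both.

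HDA9 itself (AT3G44680, chromosome 3) stood at 7.79 FPKM in Col against 1.70 in hda9, while hos15 held 10.7, pwr 10.9 and the double mutant 1.76. Only the 2 columns that carry the insertion were low. The log2 difference between hda9 and Col was -1.70, and the RNA was not listed at 0. HOS15 (AT5G67320) stood at 16.2 FPKM in Col against 4.37 in hda9, while hos15 held 2.16, pwr 3.17 and the double mutant 1.89. It was thus low in all 4 mutants, of which hda9 and pwr carry no labelled mutation in it. Its log2 difference in hda9 was -1.68, and -0.36 after the adjustment for transcript sequence described below. PWR (AT3G52250) stood at 8.38 in Col and 9.76 in hda9. Within 30 kb of HDA9, 10 rows are annotated and 3 were compared. Besides HDA9 these were AT3G44670, at 8.66 FPKM in Col against 6.13 in hda9, and AT3G44704, at 2.21 in Col and listed at 0 in hda9, pwr and the double mutant.

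In hda9, 377 genes were higher than in Col (1.99% of those compared) and 849 were lower (4.49%). The counts of lists and gene sets below are to be read beside these shares. The median log2 difference over all genes was -0.04, and the middle of the distribution ran from -0.33 to 0.24 (lower and upper quartile). A 4-fold difference was reached by 47 genes on the higher side and 106 on the lower side. Of the called genes, 16 were listed at 0 in Col and 38 at 0 in hda9, and no fold is given for these. The genes just past the limit were AT1G44830, at 1.08 FPKM in Col against 3.15 in hda9, and AT1G60200, at 19.2 and 9.098. Just under it were MLP168, at 2.92 and 6.83, and AT5G26290, at 15.5 and 7.25. At the filter, AT3G13020 and AT5G49380 were kept with a second-highest FPKM of 1.00005 and 1.00012, while AT3G56300 (0.999679) and BZIP27 (0.99998) were left out. Genes were called on every chromosome at similar rates, from 1.82% to 2.15% on the higher side and from 4.09% to 4.74% on the lower side. A gene on the other strand overlaps 27.7% of all genes, 15.9% of the higher and 30.6% of the lower ones. Among compared genes named below these are PWR, ERF105, WRKY33, WRKY40, WRKY53, TCH2, TCH3, COI1, MYC2, SARD1, COR15B, CBF3, PBP1, BCAT-2 and THA1. They are also MFP1, CIP1, RIP5, NET1D, 3xHMG-box2, HMGB1, HDA2, HAF01, RING1B, MES18, MEB1, PYK10, FLC, APG9, NPX1, PIF7, LNK1, LNK2, CAB1, PRK and SYP111. RSU1, NET4B, ARF19 and SAG21 overlap a gene on the same strand.

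**Figure D1:**
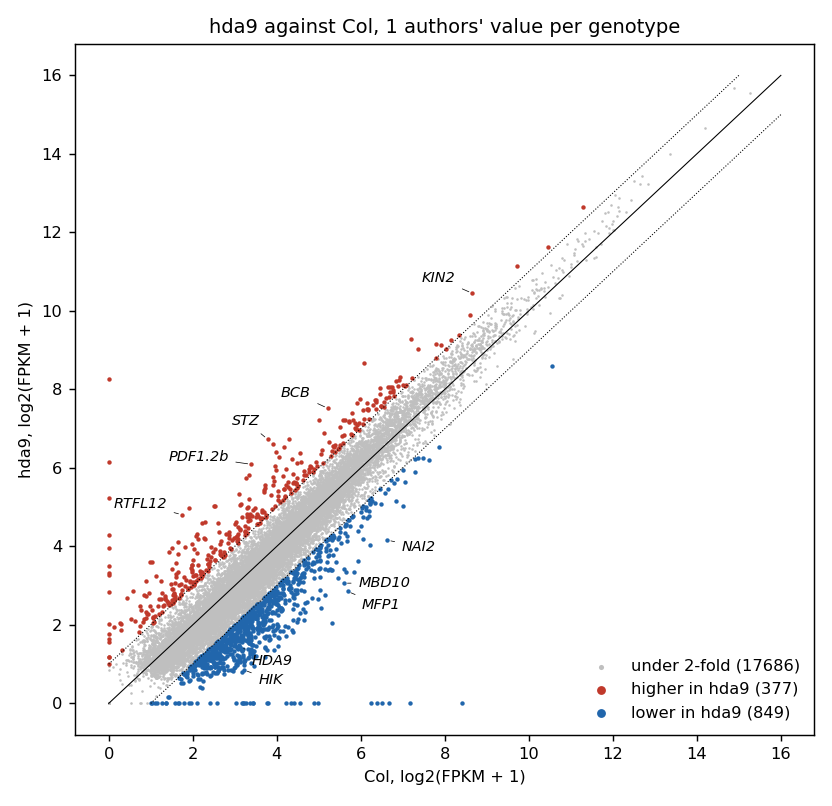
Each point is 1 of 18912 genes, by its log2(FPKM + 1) in Col (horizontal) and in hda9 (vertical); the solid line marks equal values and the dotted lines a 2-fold difference. The 377 genes above the upper dotted line include STZ, RTFL12 and KIN2, and the 849 below the lower one include MFP1, MBD10 and HDA9; points on an axis are listed at 0 in 1 of the columns.

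The sequence of a transcript moved with its difference, and it is shown first because it touches most of the lower genes. The stretches below are the 90 coding bases richest in purine (A and G) in the 3 named genes that were lowest in hda9 relative to Col, and in STZ and ERF6, which were among the highest. They were read from the RefSeq annotation of TAIR10.1, 5′ to 3′ on the coding strand, and capitals mark unbroken runs of at least 8 purines.
MFP1: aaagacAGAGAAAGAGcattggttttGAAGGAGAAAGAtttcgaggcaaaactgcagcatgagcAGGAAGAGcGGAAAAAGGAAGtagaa
3xHMG-box2: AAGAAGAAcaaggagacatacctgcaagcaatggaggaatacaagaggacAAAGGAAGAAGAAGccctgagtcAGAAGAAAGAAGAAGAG
MBD10: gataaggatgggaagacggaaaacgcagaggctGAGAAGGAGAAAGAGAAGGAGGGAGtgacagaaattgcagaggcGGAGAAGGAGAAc
STZ: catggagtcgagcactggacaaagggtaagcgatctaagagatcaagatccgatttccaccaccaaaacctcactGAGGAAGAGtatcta
ERF6: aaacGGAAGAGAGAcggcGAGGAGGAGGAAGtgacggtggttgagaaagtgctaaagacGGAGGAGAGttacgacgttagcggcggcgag
Of these 90 bases, 69 were purines in MFP1, 72 in 3xHMG-box2, 76 in MBD10, 53 in STZ and 69 in ERF6. The richest stretch of ERF6 therefore equals that of MFP1, and the genes differ over the whole coding sequence, with 60.3% purine in MFP1, 64.9% in 3xHMG-box2 and 68.1% in MBD10 against 47.8% in STZ and 53.4% in ERF6. Codons for lysine and glutamate, which are all purine, made up 14 to 16 of the 30 codons in the stretches of the 3 lower genes, 12 in ERF6 and 7 in STZ.

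Over 18079 protein-coding genes whose transcript was 300 nt or longer, the difference went down as the purine share went up. The 1236 genes of up to 46% purine had a median log2 difference of 0.31, with 79 higher and 6 lower in hda9. The 232 genes above 58% purine had a median of -1.14, with 1 higher and 124 lower. Genes above 54% purine were 11.6% of all genes, 67.4% of the lower genes (529 of 785) and 2.74% of the higher ones (9 of 328). Across genes Spearman's rho with the difference was -0.47 for the whole transcript, -0.37 for its coding part and -0.15 for its untranslated part. It was -0.35 for the share of lysine and glutamate codons, -0.27 for transcript length and 0.12 for GC share. Genes are not replicates, all come from the same libraries, and length enters every FPKM value. The lower genes had a median transcript length of 2201 nt and 19.0% lysine and glutamate codons, against 1714 nt and 12.6% over all genes. The higher genes had 1168.5 nt and 11.4%. What sets this trend was not tested.

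To set it aside, the trends with purine share, the richest 100-nt window, length and GC share were fitted over all 18079 genes and subtracted. They took up 35.1% of the variance of the log2 differences. Of these genes, 328 were higher and 785 lower before the step, so that 29.5% of the called genes were higher. After it 309 were higher (1.71%) and 237 were lower (1.31%), or 56.6% higher. On the higher side 227 genes were past 2-fold both before and after, and on the lower side 187. The sequence-adjusted value is given below for most named genes whose call it changes, and its limits are those of a fit made on the same genes.

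**Figure D2:**
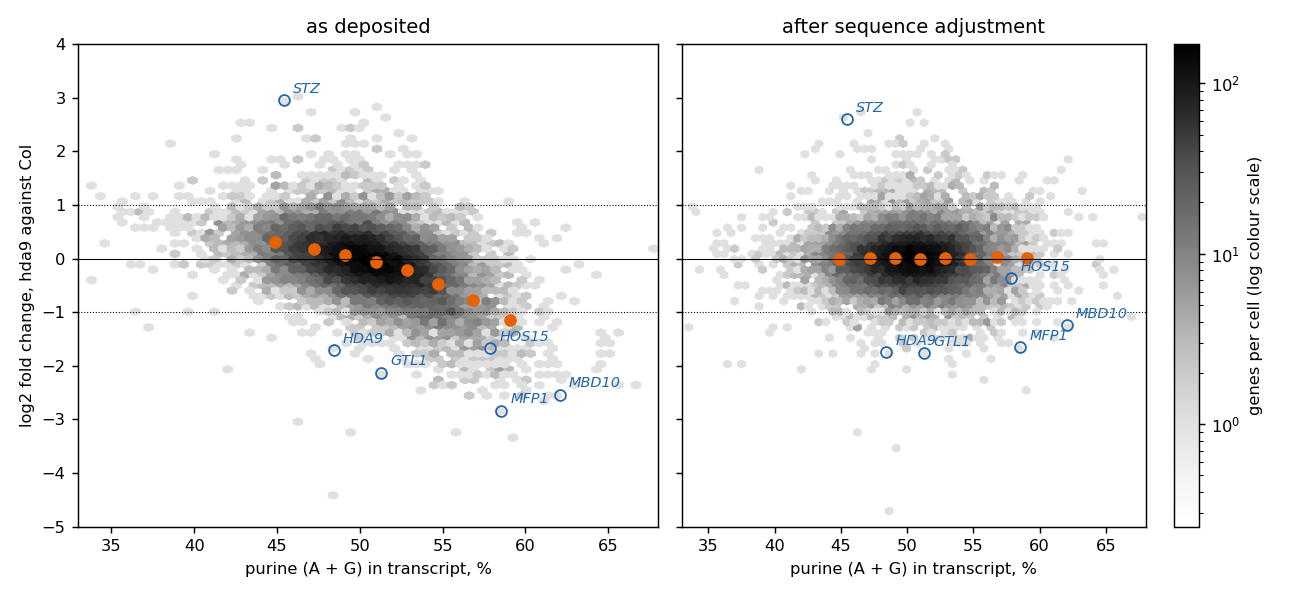
Purine share of the transcript (horizontal, %) against the log2 difference between hda9 and Col (vertical), for 18079 protein-coding genes, before (left) and after (right) sequence adjustment; grey shows the number of genes per cell, orange points are medians of 8 purine classes and blue rings are named genes. Before adjustment the class medians run from 0.31 to -1.14, and HOS15 lies in the band of purine-rich genes, while HDA9 and GTL1 lie below genes of their own composition in both panels.

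Among lists chosen with earlier results of these data known, early stress-response genes formed the list with the most members higher in hda9. This list holds transcription factors, kinases and RNA-decay factors that plants induce within minutes of wounding, cold, touch or microbial signals. All 36 members were measured, of which 21 were higher and 0 were lower, against 1.99% and 4.49% of all genes compared. Their median log2 difference was 1.14. With sequence adjustment 23 were higher and the median was 1.17. The zinc-finger repressor gene STZ (AT1G27730), also called ZAT10, stood at 12.8 FPKM in Col against 105 in hda9, while hos15 held 70.9, pwr 45.5 and the double mutant 28.2. The highest of these values was in hda9 and the lowest in Col. The log2 difference between hda9 and Col was 2.95.

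Ethylene-response factors (ERFs), which bind the GCC box and switch defence genes on or off, were prominent among the early stress genes. ERF6 (AT4G17490) stood at 18.7 FPKM in Col against 105 in hda9, while hos15 held 71.6, pwr 61.8 and the double mutant 21.3. ERF105 (AT5G51190) stood at 3.86, 23.6, 21.8, 8.20 and 4.52 in the same order. For both genes the double mutant lay next to Col and the single mutants lay above. The log2 differences in hda9 were 2.43 and 2.34. ERF13 stood at 0.356 FPKM in Col against 5.43 in hda9 (log2 difference 2.25), the activator ERF5 at 6.31 and 17.7 (1.35), and the repressors ERF4 and ERF11 at 22.7 and 69.9 (1.58) and at 3.03 and 11.6 (1.64). After adjustment ERF4 stood at 0.95, under 2-fold.

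Other regulators of the list followed. CAF1a and CAF1b, deadenylases that shorten poly(A) tails, stood at 9.09 FPKM in Col against 36.1 in hda9 and at 4.44 and 14.9. The tandem zinc-finger genes SZF1 and SZF2 stood at 17.596 and 61.9 and at 20.9 and 48.2. The C2H2 zinc-finger genes ZAT6, ZAT11 and ZAT12 had log2 differences of 1.52, 1.32 and 1.52, and the kinase gene MKK9 had 1.49. TEM1 and TEM2, which also repress flowering, had 1.12 and 1.197. The WRKY factors of the list were mixed. WRKY40 stood at 5.14 FPKM in Col against 19.75 in hda9, but WRKY33 stood at 17.65 and 20.7 and WRKY53 at 8.77 and 4.56, both under 2-fold. The rise in hda9 was not seen throughout the list in the double mutant, which carries the same hda9 allele. There CAF1a held 9.95 FPKM, SZF1 17.5 and WRKY40 2.83, near or below Col, while ERF4 held 52.6 and MKK9 19.1, above it. Members of this list beyond the 5 with the largest differences were named after their values were seen, as were other genes given with differences under 2-fold.

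**Figure D3:**
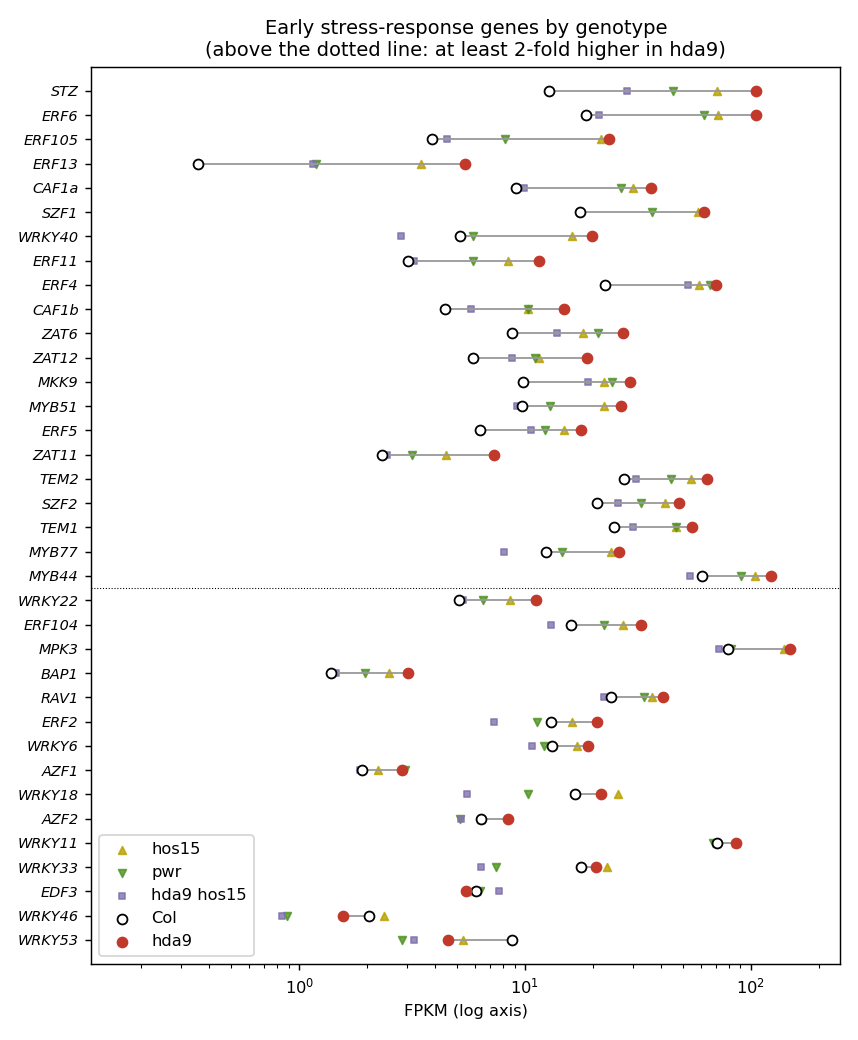
FPKM (log axis) of the 36 early stress-response genes in Col (open circles), hda9 (red circles), hos15 (upward triangles), pwr (downward triangles) and the hda9 hos15 double mutant (squares), ordered by the log2 difference between hda9 and Col. The 21 genes above the dotted line were at least 2-fold higher in hda9, and hda9 holds the highest of the 5 values for STZ, ERF6, ERF105 and ERF13.

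The promoters of the 2 early stress genes with the largest differences are shown as the 250 bases before the annotated start, read from RefSeq TAIR10.1 on the gene's strand. The authors' build is TAIR10, and the coordinates are those of TAIR10.1. Capitals mark TTGAC (the W-box core bound by WRKY factors), GCCGCC (the GCC box bound by ERFs) and ACGTG (the core of the abscisic acid response element), on either strand.
STZ, chr1:9649324-9649573, minus strand: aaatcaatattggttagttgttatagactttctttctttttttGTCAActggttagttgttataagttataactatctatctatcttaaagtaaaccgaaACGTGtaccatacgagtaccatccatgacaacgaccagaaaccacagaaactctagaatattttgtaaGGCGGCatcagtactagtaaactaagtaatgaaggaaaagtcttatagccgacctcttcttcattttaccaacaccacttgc
ERF6, chr4:9754162-9754411, minus strand: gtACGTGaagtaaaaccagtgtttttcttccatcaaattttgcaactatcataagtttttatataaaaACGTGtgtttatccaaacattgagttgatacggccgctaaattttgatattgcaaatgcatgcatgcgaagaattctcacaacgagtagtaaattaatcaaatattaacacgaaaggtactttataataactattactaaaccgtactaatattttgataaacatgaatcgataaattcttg
The STZ promoter held 1 of each motif and that of ERF6 held 2 ACGTG. Over the window from 250 bases before to 50 bases after the start, TTGAC was found in 51.1% of 18169 protein-coding genes, in 63.5% of the 340 higher genes with a window and in 49.9% of the 806 lower ones. It was found in 16 of the 21 early stress genes that were higher (76.2%). These 21 were picked by their hda9 value from a list chosen with earlier results known. List members that were not higher were not counted apart, so the share cannot be tied to the rise in hda9. ACGTG was found in 27.7% of all genes, 39.7% of higher, 27.8% of lower and 57.1% of the 21 early stress genes, and GCCGCC in 2.61%, 4.71%, 2.36% and 19.0%. The CAMTA-factor core CGCGTT was found in 3.68% of all, 8.53% of higher and 3.60% of lower genes and in 0 of the 21. CCGAC, the core bound by CBF factors, was found in 16.2%, 14.1%, 17.4% and 19.0%. CACGTG, the G-box, which contains ACGTG, was found in 8.71%, 11.8%, 9.93% and 19.0%, and the evening element AAATATCT in 6.15%, 7.06%, 3.97% and 4.76%. A match is a run of letters and was not tested as a binding site.

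Touch-induced genes and genes of cell-wall growth were the next list. Of 11 measured members 6 were higher and 0 lower, with a median of 1.04. The xyloglucan-modifying enzyme gene TCH4 stood at 117 FPKM in Col against 270 in hda9, while hos15 held 314, pwr 148 and the double mutant 57.0. The calmodulin-like genes TCH2 and TCH3 stood at 57.4 in Col and 128 in hda9 and at 128 and 275. CML38 stood at 7.09 and 22.7, and the XTR6 and XTH24 transcripts, for enzymes of the same family as TCH4, at 8.54 and 22.05 and at 134 and 277. In the double mutant CML38 held 6.89, XTR6 5.79 and TCH3 87.6, below Col, while TCH2 held 73.1 and XTH24 138, above it. After adjustment XTH24 stood at a log2 difference of 0.82, under 2-fold. The expansin genes of the list, EXPA1, EXPA4 and EXPA8, did not reach 2-fold, with log2 differences of -0.21, 0.38 and 0.02. With quantile normalization 2 members were past 2-fold, and with all columns scaled to 1 sum also 2.

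Defensin genes, which encode small antimicrobial peptides, had 5 of 10 measured members higher and 0 lower, with a median of 0.79. PDF1.2b stood at 9.51 FPKM in Col against 67.2 in hda9, while hos15 held 33.04, pwr 29.2 and the double mutant 28.7. PDF1.3 stood at 8.68 in Col and 52.8 in hda9, PDF1.2 at 3.63 and 23.3, and PDF1.2c at 1.86 and 14.6. These are near-identical copies, so how reads were shared among them is uncertain and the 4 values are not independent. PDF1.4, the other higher member, had a log2 difference of 1.08 and 0.77 after adjustment. The 5 members that did not reach 2-fold, PDF1.5 and the PDF2 genes, lay between -0.07 and 0.51.

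Jasmonate is the hormone that induces PDF1.2 together with ethylene. Of 22 measured jasmonate genes 3 were higher and 0 lower, with a median of 0.29. All 3 encode enzymes of jasmonate synthesis. AOS stood at 101 FPKM in Col against 222 in hda9 (0.99 after adjustment), AOC1 at 29.5 and 70.4, and LOX4 at 5.33 and 12.8. The receptor gene COI1 stood at 12.5 and 13.3 and the activator gene MYC2 at 21.96 and 23.2, and none of the JAZ repressor genes measured reached 2-fold. Among 12 ethylene genes 3 were higher and 0 lower, with a median of 0.07. All 3 encode ACC synthases, which make the ethylene precursor: ACS6 stood at 8.92 and 21.0, ACS7 at 1.06 and 3.51 and ACS11 at 1.99 and 7.42. In the double mutant ACS6 held 8.24, ACS7 0.869 and ACS11 3.02. The ethylene signalling genes EIN2 and EIN3 had log2 differences of -0.12 and -0.54.

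Of 15 salicylic acid and defence genes 1 was higher and 2 were lower, with a median of -0.10. Over all genes compared 1.99% were higher and 4.49% lower, so these few calls are not read as a trait of the list. CBP60G, an activator of salicylic acid synthesis, stood at 3.08 FPKM in Col against 7.35 in hda9. SARD1 was past 2-fold only after adjustment, at a log2 difference of 1.14 against 0.79 before. PCC1, a pathogen- and clock-controlled gene, stood at 6.72 in Col against 1.25 in hda9, while hos15 held 1.37, pwr 1.98 and the double mutant 2.58. The log2 difference of PCC1 in hda9 was -1.78, and -2.08 after adjustment. EDS1, a hub of immune-receptor signalling, stood at 10.9 and 4.23, and its log2 difference of -1.18 became -0.42. Of 13 NLR immune receptors none reached 2-fold, the largest being DAR4 at -0.80.

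The cold-response list had 3 of 14 members higher and 0 lower, with a median of 0.46, and one of the 3 was STZ, counted above. KIN2 and KIN1, which encode small cold-induced proteins, stood at 401 FPKM in Col against 1397 in hda9 and at 7.14 and 17.8. They are close copies, so how reads were shared between them is uncertain. For KIN2 hos15 held 1310, pwr 1931 and the double mutant 2187, so hda9 was not the highest column for it. The COR15A and COR15B genes had log2 differences of 0.67 and 0.66, under 2-fold, and the upstream regulators CBF1, CBF2 and CBF3 had 0.12, 0.68 and 0.41. The cold-induced genes COR78, LTI30 and COR47 had -0.77, -0.70 and -0.68, also under 2-fold. Of 18 abscisic acid and drought genes none reached 2-fold (median -0.12), the dehydrin gene ERD10 being the largest at -0.96. The purine share of ERD10 is 56.9%, and its adjusted value was 0.03. CYP707A3 was past 2-fold only after adjustment, at a log2 difference of 1.15 against 0.88 before.

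**Figure D4:**
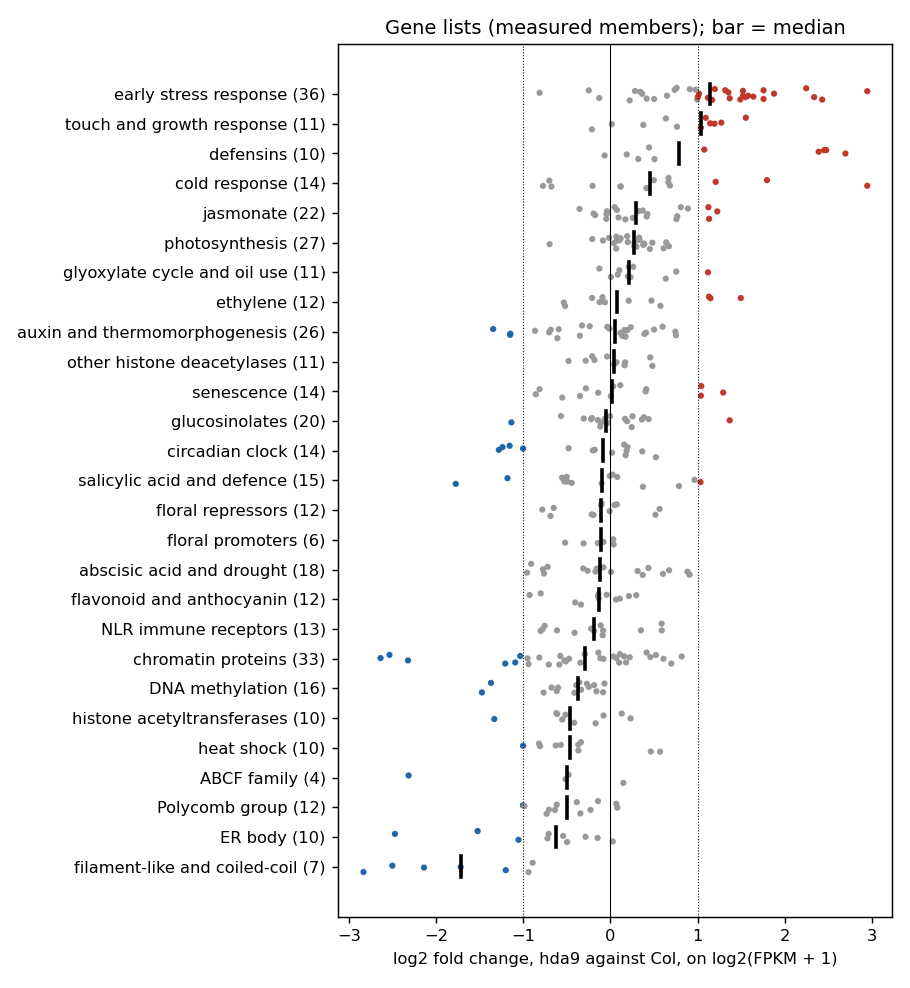
Log2 difference between hda9 and Col of every measured member of the lists with at least 4 members, each point 1 gene (red at least 2-fold higher, blue at least 2-fold lower), with a black bar at the list's median and the number of members in brackets. The early stress list has 21 of 36 members above the upper dotted line, and the filament-like and coiled-coil list has 5 of 7 below the lower one.

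Several genes outside these lists were among the largest on the higher side. RTFL12, of a family of small peptides that limit organ growth, stood at 2.35 FPKM in Col against 27.0 in hda9, while hos15 held 12.0, pwr 13.2 and the double mutant 5.26. RSU1 stood at 2.76 in Col and 30.3 in hda9. The mitochondrial dicarboxylate carrier genes DIC2 and UCP5 (also called DIC1) stood at 14.7 and 83.5 and at 12.0 and 41.1, and these were the only measured members of their list of 3. AACT1, an acyltransferase gene, stood at 2.15 and 16.2, the blue copper protein gene BCB at 36.2 and 182, and AGP5, for an arabinogalactan protein of the cell wall, at 3.25 and 18.1. PBP1 (AT5G54490), for a calcium-binding partner of the kinase PINOID, stood at 7.56 and 39.5. The amino acid enzymes BCAT-2, a branched-chain transaminase, and THA1, a threonine aldolase, stood at 2.98 and 15.8 and at 0.791 and 5.80.

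On the lower side the largest difference among named genes was that of MFP1. MFP1, a filament-like protein of thylakoids that binds DNA, stood at 50.5 FPKM in Col against 6.22 in hda9, while hos15 held 9.42, pwr 3.75 and the double mutant 11.2. Col stood above all 4 mutants, and pwr was lowest. The log2 difference in hda9 was -2.83, and -1.65 after adjustment. Its list, filament-like and coiled-coil proteins, had 5 of 7 measured members lower and 0 higher, with a median of -1.72. After adjustment 3 stayed past 2-fold and the median was -0.77. The ROP-interactive scaffold gene RIP2 stood at 17.7 and 2.31 and its relative RIP5 at 16.5 and 4.31. CIP1, for a COP1-interacting coiled-coil protein, stood at 10.03 and 1.502, but its transcript is 61.7% purine and its log2 difference of -2.14 became -0.34.

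Of 52 sets of genes sharing a word in their RefSeq product name that were looked at, those described here were picked after their values were seen. Of 32 kinesins, the motors that move along microtubules, 17 were lower and 0 higher (median -1.11), and 3 stayed lower after adjustment (median -0.48). HIK, a kinesin needed for cytokinesis, stood at 8.30 FPKM in Col against 0.808 in hda9, with an adjusted value of -1.66. Of 9 genes with structural maintenance of chromosomes (SMC) in the product name, 5 were lower and none after adjustment. Of 8 KIP1-like (NET) actin-binding proteins 6 were lower and 1 after adjustment, NET4B, at 17.4 and 2.90. All 5 measured XH/XS-domain proteins, which act in RNA-directed DNA methylation, were lower and none after adjustment. The median purine share of these 4 families ran from 54.8% to 57.2%, against 50.6% over all genes.

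Chromatin proteins had 6 of 33 measured members lower and 0 higher, with a median of -0.30, and 3 lower after adjustment. The HMG-box protein gene 3xHMG-box2 stood at 32.3 FPKM in Col against 4.35 in hda9, while hos15 held 4.87, pwr 2.85 and the double mutant 6.56. MBD10, of the methyl-CpG-binding family, stood at 47.4, 7.35, 10.03, 5.21 and 10.96 in the same order, and the histone chaperone gene FKBP53 at 18.4, 2.87, 3.49, 1.97 and 4.65. All 3 stayed past 2-fold after adjustment, at -1.44, -1.23 and -1.16. MBD11, HMGB1 and NAP1;1 did not, and their adjusted values were -0.29, -0.41 and -0.20. Histone H3 genes of the same list were not lower: HTR5 stood at 440 and 776 (log2 difference 0.82) and HTR8 at 312 and 507 (0.70).

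Enzymes that write or erase chromatin marks were in 4 further lists. Over all genes compared 4.49% were lower, so 1 or 2 lower genes in such short lists are not read as a trait of them. Of 11 other histone deacetylase genes none reached 2-fold, with a median of 0.04 and the largest difference, 0.48, in HDA2. Of 10 histone acetyltransferase genes 1 was lower (median -0.47), HAF01, at 6.86 FPKM in Col against 2.12 in hda9. Of 12 Polycomb genes 1 was lower (median -0.50), RING1B, at 3.22 and 1.101. Of 16 DNA methylation genes 2 were lower (median -0.38, with no member above 0), both for DNA demethylases: DML1 (also called ROS1) at 6.27 and 1.61, and DME at 8.43 and 2.64. None of these 4 genes stayed past 2-fold after adjustment, with values from -0.86 to -0.23, and the medians of the 3 lists became -0.22, -0.07 and -0.07.

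**Figure D5:**
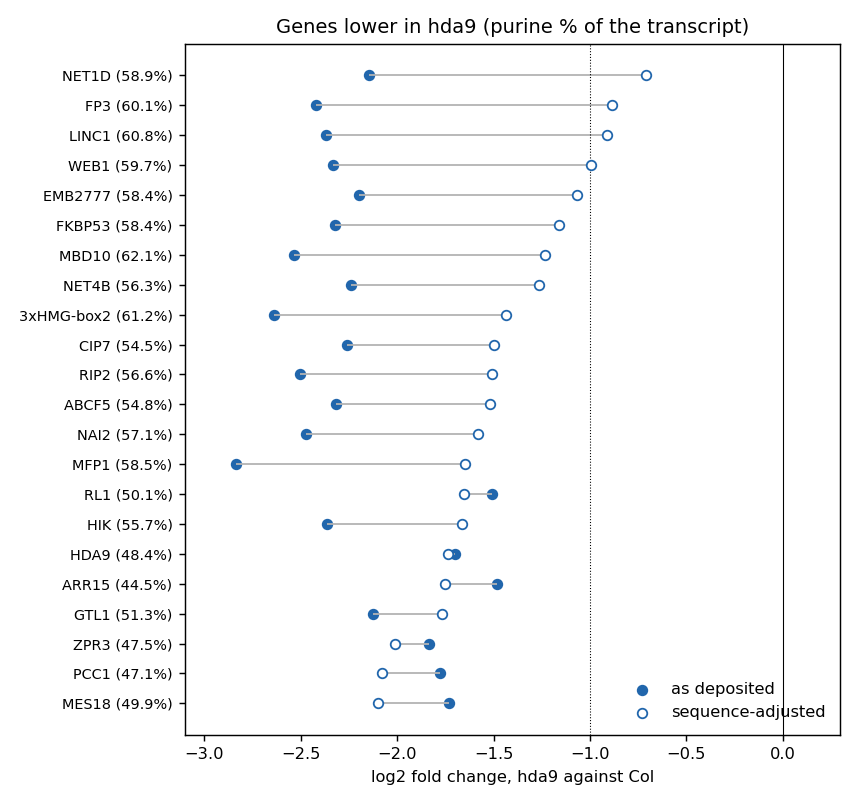
Log2 difference between hda9 and Col before (filled) and after (open) sequence adjustment for the 15 named genes with the largest falls and the 8 with the largest adjusted falls, 1 of which is in both; the purine share of the transcript stands in brackets and the dotted line marks 2-fold. FP3, LINC1, WEB1 and NET1D cross the dotted line with adjustment, and MES18, PCC1 and ZPR3 lie further out with it.

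A smaller set of genes was lower without a purine-rich transcript. MES18, for a methyl esterase, stood at 16.3 FPKM in Col against 4.20 in hda9, while hos15 held 3.65, pwr 4.005 and the double mutant 5.72. GTL1, a trihelix factor that limits cell growth, stood at 25.2 in Col against 5.001 in hda9, while hos15 held 6.90, pwr 3.49 and the double mutant 6.33. ZPR3, for a small zipper protein that binds leaf-polarity factors, stood at 3.65 in Col and 0.301 in hda9, and at 1.23 to 2.01 in the other mutants. In ZPR3 hda9 alone was below 1 FPKM. ARR15, a response regulator that dampens cytokinin signalling, stood at 3.66 and 0.669, and RL1, a RAD-like MYB gene, at 4.71 and 1.005. The adjusted values of these 5 genes ran from -2.10 to -1.65.

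Genes of the endoplasmic reticulum body, a myrosinase store of Brassicaceae seedlings, had 3 of 10 members lower and 0 higher, with a median of -0.63. NAI2, needed to form the body, stood at 98.3 FPKM in Col against 16.9 in hda9, while hos15 held 26.9, pwr 10.6 and the double mutant 20.4. The membrane protein genes MEB1 and MEB2 stood at 15.4 and 4.70 and at 6.36 and 2.54. NAI2 and MEB1 stayed past 2-fold after adjustment, at -1.58 and -1.35, and MEB2 stood at -0.52. PYK10, the main enzyme of the store, stood at 1441 and 989, and NAI1, the regulator, at 17.2 and 11.9, both under 2-fold.

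Flowering, senescence and warm growth are the processes for which HDA9 is best known. Of 14 floral promoters listed 6 were measured, and none of these reached 2-fold (median -0.11). AGL19, LFY, AP1 and FUL were among those that did not pass the filter, so they were not compared. None of 12 measured floral repressors reached 2-fold (median -0.10). AGL20 (also called SOC1) stood at 20.9 FPKM in Col against 14.2 in hda9, AGL31 (also called MAF2) at 30.1 and 17.1, and FLC at 4.72 and 3.93. Of 14 senescence genes 3 were higher and 0 lower, with a median of 0.02, and 2 were higher after adjustment. The 3 were SAG21 at 389 and 955, SEN1 at 28.02 and 58.7 and XTH24, already given. The largest falls, under 2-fold, were NYC1 at -0.86 and WRKY53 at -0.81. WRKY57, APG9 and NPX1, which restrain senescence and are known as HDA9 targets, stood at 12.8 and 13.1, 9.31 and 7.09, and 6.99 and 4.44. Of 26 auxin and warm-growth genes 3 were lower, ARF19, PIF7 and IAA2, and 0 were higher. ARF19 (5.54 and 1.57) stayed past 2-fold after adjustment, while PIF7 and IAA2 stood at -0.68 and -0.83. IAA19 was past 2-fold only after adjustment, at a log2 difference of 1.16 against 0.50 before. YUC8, an auxin synthesis gene of warm growth, stood at 1.06 and 1.70, and PIF4 at 39.98 and 24.1.

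Of 14 measured clock genes 4 were lower and 0 higher, with a median of -0.08. CCA1, LHY, RVE8 and PRR9 of the same list did not pass the filter and were not compared. PRR7 stood at 43.5 FPKM in Col against 17.8 in hda9, PRR3 at 27.6 and 10.8, LNK1 at 9.24 and 4.11 and LNK2 at 17.96 and 7.50. LNK2 stayed past 2-fold after adjustment, at -1.04, while PRR7, PRR3 and LNK1 stood at -0.65, -0.79 and -0.57. The other 10 measured members lay between -0.48 (PRR5) and 0.52 (ZTL).

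Metabolic lists held few calls. With 1.99% of all genes compared higher and 4.49% lower, 1 called gene in a short list is not read as a trait of it. None of 27 photosynthesis genes reached 2-fold. Their median was 0.28, which turned to -0.16 with quantile normalization and to -0.03 with sequence adjustment. CAB1 (also called LHCB1.3), a light-harvesting gene, stood at 10515 FPKM in Col against 16382 in hda9, and PRK, a Calvin-cycle enzyme, at 1115 and 687. None of 12 flavonoid genes reached 2-fold (median -0.13), the largest being DFR at 3.12 and 1.17. Of 20 glucosinolate genes 1 was higher, the regulator MYB51 (9.67 and 26.5), and 1 lower, MYB76 (3.53 and 1.06), with a median of -0.05. MYB51 is also among the higher genes of the early stress list. Of 11 glyoxylate-cycle and seed-oil genes ICL was higher, at 4.81 and 11.6, and the median was 0.21. Outside metabolism, of 10 heat shock genes 1 was lower, BIP2, at 64.9 and 31.9 (-0.55 after adjustment), and their median of -0.47 became 0.22. Of 4 ABCF genes 1 was lower, ABCF5, at 60.1 and 11.3, with a median of -0.50.

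Marker genes were read for the makeup of the seedlings, which 1 pooled value per genotype cannot settle. Leaf markers were abundant in both columns, while pollen and seed-reserve markers summed to less than 1 FPKM in each, and the tissue is labelled whole seedling. Of 5 guard-cell markers 3 were lower in hda9, KAT1 (8.50 and 2.78), MYB60 (11.1 and 4.71) and FMA (8.51 and 3.57), and the 5 summed to 38.7 FPKM in Col against 18.8 in hda9. After adjustment KAT1 stayed past 2-fold, and MYB60 and FMA stood at -0.70 and -0.63. The 5 markers of dividing cells summed to 95.9 and 62.5, with no member past 2-fold and SYP111 (also called KNOLLE) the largest at -0.97. SYP111 stood at 40.7 and 20.2, while the marker AT1G76540 was level at 21.8 and 21.6. The median of the 5 was -0.72, and -0.59 after adjustment. The 5 root-hair markers summed to 50.5 and 82.7, the 5 markers of photosynthetic tissue to 44167 and 61076, and the 5 xylem markers to 58.05 and 52.3, with no member past 2-fold. Much of the root-hair rise was PRP3 (28.1 and 50.5), while RHD2 stood at 4.50 and 4.15. With adjustment the root-hair median went from 0.58 to 0.18, that of photosynthetic tissue from 0.39 to 0.17 and that of xylem from -0.28 to -0.17. All rows summed to 955700 FPKM in Col and 1153300 in hda9. The 4 trichome markers summed to 5.53 and 2.39, and 1 of them passed the filter. The part of cell makeup in the differences above was not tested.

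The genes called in hda9 were also read in the other mutant columns, all of which are set against the same Col values. The 377 higher genes had a median log2 difference of 1.29 in hda9, while the median was 0.96 for hos15, 0.95 for pwr and 0.54 for the double mutant. The 849 lower genes had -1.32, -0.98, -1.65 and -1.11 in the same order. All 4 differences share the Col column, and the genes were chosen for their hda9 value.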

How the data were processed

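The authors deposited gene-level FPKM values, 1 column per genotype, made with TopHat2, Cufflinks and Cuffdiff on the TAIR10 build, per the submitters' processing notes. Versions, settings and the way 2 libraries were pooled per genotype: not given in the sources used here. Per the labels' protocols the library kit (mRNA) keeps strand. From these values log2(FPKM + 1) was taken and hda9 was set against Col in rows that reached an FPKM of 1 in 2 or more of 5 columns. Without replicates a rule of size (2-fold) stands in for a test, and depth and precision are unknown. Locus names were matched to RefSeq TAIR10.1 (32350 rows), which gave transcripts, overlaps and promoters. The 271 organelle rows were all 0.

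For sequence adjustment, additive cubic splines with 5 knots each were fitted with scikit-learn 1.9.0 (Python 3.11.15, numpy 2.4.6, pandas 2.3.3) to purine share, the highest purine share in 100 nt, log2 length and GC share. The scripts were tested on simulated data. Named genes are HDA9, HOS15 and PWR; the 15 largest rises and falls with a symbol, an FPKM of at least 2 and a transcript of at least 300 nt; the 8 largest adjusted differences each way among genes past 2-fold before and after; and, for each of 29 lists, members past 2-fold (up to 5) or else the largest. Of 496 list symbols 479 matched. The genes, lists and tests were chosen with earlier results of these data known, and some symbol matches were corrected after values were seen. Alternatives changed the pseudocount, filter, scaling, adjustment and the genes kept.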

Additional observations from a re-analysis of the deposited data

How the results depend on the processing

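Against 377 genes higher and 849 lower, a pseudocount of 4 gave 218 and 335, an FPKM of at least 5 gave 311 and 353, and scaling to 1 sum over transcripts of at least 300 nt gave 220 and 1404. A pseudocount of 0.1 gave 527 and 1273, no filter 403 and 981, median-ratio scaling 424 and 756, quantile normalization 453 and 660, and leaving out overlapping genes 299 and 555. Sequence adjustment gave 309 and 237. With the adjusted values moved to the unadjusted median, an alternative chosen after seeing the data, it gave 268 and 273. The share of called genes that were higher was 30.8%, and ran from 13.5% with scaling to 1 sum, which moved the median of all genes by -0.22, to 56.6% with sequence adjustment. Of 86 named genes past 2-fold, 29 dropped under it with a pseudocount of 4, 26 with sequence adjustment, 14 with quantile normalization, 14 with scaling to 1 sum and 3 with median-ratio scaling. No named gene past 2-fold changed direction in the settings run. List medians moved by over 0.2 (log2) in 14 of 29 lists with sequence adjustment and in 25 with scaling to 1 sum. The cause was not tested.

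No paired analysis was possible because the file holds 1 pooled value per genotype. The replicate block and leaving out each replicate in turn were not run for the same reason. Depth is unknown, so differences of weakly expressed genes carry an error that cannot be given.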

Other observations

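Transcripts under 300 nt behaved as a class of their own. Of 175 that passed the filter, 27 were higher in hda9, of which 10 were listed at 0 in Col, and 36 were lower, of which 27 were listed at 0 in hda9. Calls either way made up 36% of the class, against 6.48% of all genes compared.

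Sets of genes sharing a word in their product name, looked at with values in view, gave these counts. Of 57 ERF/AP2 genes 13 were higher and 1 lower. Of 96 genes with calmodulin or EF-hand anywhere in the product name, calmodulin-binding products not set apart, 11 were higher and 3 lower. The higher ERF/AP2 genes include ERF4, ERF5, ERF6, ERF13 and ERF105, already counted in the early stress list. Of 43 arabinogalactan protein genes 5 were higher and 0 lower, with a median purine share of 43.2%, and 1 was higher after adjustment. Of 30 nucleolar protein genes 11 were lower and 0 higher, and 3 were lower after adjustment. Of 46 splicing genes 10 were lower, and 0 after adjustment. Of 92 genes with the lower-case words ribosomal protein in the product name 1 was lower and 0 higher. Names that begin with a capital were not searched, so these are a part of the family. None of 52 photosystem genes was past 2-fold.

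Calls also differed by level. Of the 1516 genes with a mean over 100 FPKM, 57 were higher and 8 lower, and of the 3369 between 2 and 5 FPKM, 65 and 287. Of the 1738 genes below 2 FPKM, 17 were higher and 46 lower. The 1 added to each FPKM keeps many genes of this level from reaching 2-fold, so their share cannot be set against the other levels.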
